A study of Mus musculus with 18 samples.

Results

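The mitochondrial carrier family (SLC25) was examined in RNA from mouse kidney cortex as the 47 genes, of 24062 in the deposited table, whose symbol is Slc25a followed by a number. A member was tested when it reached 1 RPKM (reads per kilobase of transcript, scaled to library depth) in at least 3 of the 18 libraries. This held for 41 members, and Slc25a2, Slc25a18, Slc25a31, Slc25a41, Slc25a53 and Slc25a54 stayed below that level. All mice were C57Bl/6. The Klf15fl/fl mice (fl/fl) have floxed alleles of the Krüppel-like transcription factor Klf15, and the Klf15PTKO mice (PTKO) have lost it in the proximal tubule. Each genotype was studied after the vehicle DMSO, after 2 weeks of aristolochic acid I (AA 2wk), a plant toxin taken up by the proximal tubule, and after 2 weeks of the toxin followed by 2 weeks of remodeling (AA 4wk). Each of the 6 groups has 3 libraries. Neither the Cre line nor the exons it removes are named in the labels, no group is labelled as having Cre with intact Klf15, and the labels give no week for DMSO. They do not say that replicates are separate mice, so p-values measure the spread between libraries, which may be technical. The same DMSO libraries of a genotype serve both toxin courses, so the 2 effects of a genotype are not independent.

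Carriers of this family sit mostly in the inner mitochondrial membrane, where they exchange metabolites, nucleotides, cofactors and ions between the cytosol and the matrix. The proximal tubule depends on them, because it meets its demand for ATP largely by oxidising fatty acids, glutamine and lactate in mitochondria and also makes glucose. The adenine nucleotide carriers and the phosphate carrier feed ATP synthase, the di- and tricarboxylate carriers link the TCA cycle with the cytosol, and the remaining members bring in amino acids, acylcarnitines and cofactors such as coenzyme A, NAD and glutathione.

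The promoters of 6 members on which the comparisons below turn are printed here because Krüppel-like factors bind CACCC-type and other GC-rich sites. They run from 250 bases before to 50 bases after a RefSeq start in GRCm38.p6, read 5′ to 3′ on the strand of the gene, and capitals mark CACCC or its complement GGGTG. Slc25a24 rose most after the toxin, and the other 5 were lower under DMSO in every PTKO library than in every fl/fl library.
Slc25a24 (chr3:109122899-109123198, plus strand): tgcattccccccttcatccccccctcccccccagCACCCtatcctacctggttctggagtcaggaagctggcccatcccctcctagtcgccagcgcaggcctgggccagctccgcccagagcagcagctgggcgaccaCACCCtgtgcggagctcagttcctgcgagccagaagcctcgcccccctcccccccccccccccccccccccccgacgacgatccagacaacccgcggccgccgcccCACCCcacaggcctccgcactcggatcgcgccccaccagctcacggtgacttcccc
Slc25a34 (chr4:141623785-141624084, minus strand): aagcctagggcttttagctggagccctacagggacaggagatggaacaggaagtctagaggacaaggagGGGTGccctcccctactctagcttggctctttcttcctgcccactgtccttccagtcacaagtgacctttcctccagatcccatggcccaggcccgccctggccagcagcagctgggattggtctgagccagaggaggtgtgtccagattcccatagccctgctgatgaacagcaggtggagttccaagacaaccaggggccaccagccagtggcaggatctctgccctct
Slc25a38 (chr9:120110132-120110431, plus strand): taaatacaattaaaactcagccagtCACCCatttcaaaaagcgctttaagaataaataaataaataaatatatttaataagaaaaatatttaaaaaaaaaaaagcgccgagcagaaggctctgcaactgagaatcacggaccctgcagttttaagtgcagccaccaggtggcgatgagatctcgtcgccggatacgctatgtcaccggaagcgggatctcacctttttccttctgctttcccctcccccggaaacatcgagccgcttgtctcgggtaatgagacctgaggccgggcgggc
Slc25a48 (chr13:56438105-56438404, plus strand): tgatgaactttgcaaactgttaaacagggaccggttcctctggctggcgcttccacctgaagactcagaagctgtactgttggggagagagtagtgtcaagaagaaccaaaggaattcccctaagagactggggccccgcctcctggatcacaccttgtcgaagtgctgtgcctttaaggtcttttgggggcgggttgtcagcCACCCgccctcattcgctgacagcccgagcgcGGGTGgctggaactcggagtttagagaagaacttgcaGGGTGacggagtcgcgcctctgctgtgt
Slc25a42 (chr8:70212232-70212531, minus strand): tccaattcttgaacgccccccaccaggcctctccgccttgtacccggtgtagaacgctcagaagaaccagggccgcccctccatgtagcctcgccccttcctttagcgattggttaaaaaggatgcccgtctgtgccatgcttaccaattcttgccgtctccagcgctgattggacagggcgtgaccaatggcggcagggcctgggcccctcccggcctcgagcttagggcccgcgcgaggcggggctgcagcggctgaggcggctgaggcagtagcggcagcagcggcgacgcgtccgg
Slc25a25 (chr2:32451421-32451720, minus strand, the outermost of 3 starts): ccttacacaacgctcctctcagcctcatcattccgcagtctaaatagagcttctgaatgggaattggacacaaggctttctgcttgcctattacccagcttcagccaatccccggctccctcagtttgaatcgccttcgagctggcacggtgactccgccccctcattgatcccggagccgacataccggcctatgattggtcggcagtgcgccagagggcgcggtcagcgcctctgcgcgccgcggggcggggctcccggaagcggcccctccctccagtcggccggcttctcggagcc
The pentamer CACCC, counted on both strands, was found 3 times for Slc25a24 and Slc25a48, 1 time for Slc25a34 and Slc25a38, and in none of the windows of Slc25a42 and Slc25a25. Of all promoters of this length, 25.7% hold it 2 or more times and 9.35% hold it 3 or more times. On either strand it is in 57.5% of the 32851 promoters of this length and in 29 of the 46 promoters (63.0%) found for 36 of the 47 members. The NRF1 core TGCGCA, which reads the same on both strands, is in 7.8% of all and in 4 of the 46. The estrogen-related receptor element TCAAGGTCA, searched on both strands, is in 0.4% of all and in 0 of the 46. These counts describe letters in a window and say nothing of binding.

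Recovered library depth ran from 11.0 to 21.9 M reads, and 11323 to 13254 genes reached 1 RPKM. Klf15 stood at 53, 61.3 and 65.5 RPKM in the fl/fl DMSO libraries and at 28.5, 31.9 and 32.6 in the PTKO DMSO libraries, a log2 difference of -0.93 ± 0.26 (SE) that was not called (limma adjusted p = 0.595), so part of the message was still measured in whole cortex of the PTKO mice. The library numbered 3 of each AA 2wk group stood apart. Its mean over 13 proximal tubule markers was -1.32 in fl/fl and -1.50 in PTKO on the log2 scale relative to fl/fl DMSO, against -2.49 to -1.87 in the other AA 2wk libraries. The calls at AA 2wk that differ without these libraries are named with the counts. Against fl/fl DMSO, the mean over 7 macrophage markers was between 2.02 and 4.96 and that over the proximal tubule markers between -3.36 and -1.32 across all toxin libraries. The 13 proximal tubule markers summed to 10800 to 11700 RPKM in fl/fl DMSO, so the tissue label holds. Slc25a11, Slc25a21, Slc25a23, Slc25a25, Slc25a26 and Slc25a35 overlap a protein-coding gene on the other strand, and whether counting used strand is not stated, so their reads cannot be told from those of the partner. In bulk tissue, fewer cells of a type and less RNA per cell cannot be told apart.

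At rest the members differed widely in RPKM, a per-length scale that allows levels of different genes to be compared. In fl/fl DMSO, 6 members averaged at least 100 RPKM, 24 lay between 10 and 100, 9 between 1 and 10, and 8 below 1. Slc25a39, which imports glutathione, led at 571 ± 24.5 RPKM (SD, n = 3). It was followed by the phosphate carrier Slc25a3 at 445 ± 36.5, and the lowest Slc25a39 library (542.5) lay above the highest Slc25a3 library (470.3). The adenine nucleotide carriers Slc25a5 and Slc25a4 came next at 272 ± 21.3 and 269 ± 24.1, and their ranges overlapped. Then came the dicarboxylate carrier Slc25a10 at 135 ± 4.39 and the oxoglutarate/malate carrier Slc25a11 at 111 ± 4.42, which did not overlap. Among the lowest, Slc25a31, the testis form of the adenine nucleotide carrier, and Slc25a41 and Slc25a54, relatives of the ATP-Mg/phosphate carriers, were listed at 0 in all 3 fl/fl DMSO libraries. Reads of Slc25a4 and Slc25a5 can be confused with each other and with processed copies, and how they were assigned is not stated.

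**Figure D1:**
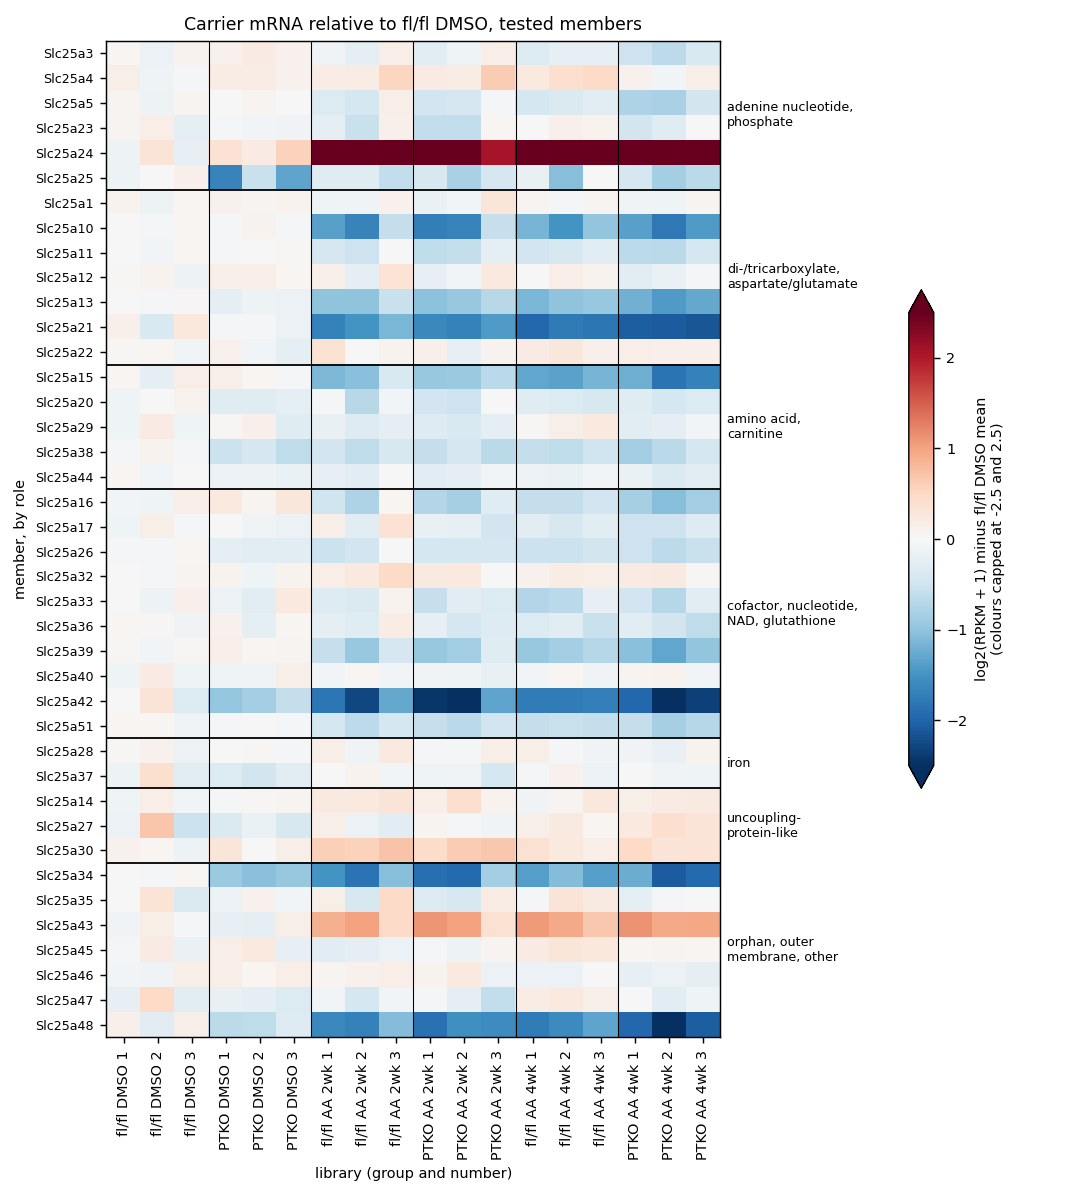
Each row is a tested member, grouped by role (1 is not shown), and each column a library; colour is log2(RPKM + 1) minus the mean of the 3 fl/fl DMSO libraries, capped at -2.5 and 2.5. Slc25a24 is high in all 12 toxin libraries, while Slc25a10, Slc25a13, Slc25a15, Slc25a21, Slc25a42 and Slc25a48 are low in them, and the libraries numbered 3 at AA 2wk are paler than their partners.

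The toxin lowered more members than it raised, in both genotypes and at both times. At AA 2wk in fl/fl, 13 of 41 members fell and 4 rose (17 called, 41.5%), while 62.6% of all 13624 tested genes were called, 50.4% higher and 12.2% lower. In PTKO at the same time, 11 fell and 3 rose, against 60.2% of all genes called, 45.9% higher and 14.3% lower. At AA 4wk, 17 fell and 5 rose in fl/fl, with 66.3% of all genes called, 51.9% higher and 14.3% lower. In PTKO at AA 4wk, 19 fell and 4 rose, with 72.2% of all genes called, 55% higher and 17.3% lower. The share of members that fell thus exceeded the share of all genes that fell in each comparison, and the share that rose was below it. Counted by groups of libraries that do not overlap, 6 members lay higher and 13 lower at AA 2wk in fl/fl (63.4% of all genes did not overlap, 51% higher and 12.3% lower), and 5 and 15 in PTKO (62.9%, 46.9% and 16%). At AA 4wk they were 7 and 21 in fl/fl (72.2%, 55.6% and 16.6%), and 7 and 22 in PTKO (80.4%, 60.5% and 19.9%). The median log2 difference of the 41 members was -0.20, -0.15, -0.25 and -0.19 in these 4 comparisons, beside 0.33, 0.29, 0.35 and 0.40 over all tested genes. The median gene thus moved up on the RPKM scale, and the split depends on scaling. The shares of all genes called under the alternatives that follow are not given here. Their member counts therefore cannot be set beside the shares above, which belong to the main fit. With median-of-ratios scaling, which sets that shift near 0, the calls were 28 lower and 2 higher (AA 2wk, fl/fl), 28 and 2 (AA 2wk, PTKO), 27 and 2 (AA 4wk, fl/fl) and 30 and 2 (AA 4wk, PTKO). With quantile normalization they were 24 and 3, 21 and 4, 26 and 2, and 26 and 3. Sample quality weights called 20 lower and 7 higher at AA 2wk in fl/fl, and 21 and 7 in PTKO. Without both AA 2wk libraries numbered 3, 18 members fell and 3 rose at AA 2wk in each genotype. The calls added in fl/fl were Slc25a5 (-0.38), Slc25a11 (-0.47), Slc25a20 (-0.37), Slc25a23 (-0.40) and Slc25a44 (-0.24), and that of Slc25a32 (0.21) was lost. In PTKO the added calls were Slc25a1 (-0.20), Slc25a3 (-0.33), Slc25a5 (-0.47), Slc25a12 (-0.26), Slc25a23 (-0.55), Slc25a34 (-0.94) and Slc25a36 (-0.30), all lower, and none was lost.

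Most calls were shared by the genotypes, which have no library in common but share 1 estimate of the spread per gene in the fit. The share of all genes called in both genotypes is not given here, so these percentages have no background beside them. Of the 13 that fell at AA 2wk in fl/fl, 10 (76.9%) also fell in PTKO, which is 90.9% of the 11 called there. They include Slc25a10, Slc25a13, Slc25a15, Slc25a16, Slc25a21, Slc25a39, Slc25a42, Slc25a48 and Slc25a51. At AA 4wk, 16 fell in both, 94.1% of the fl/fl calls and 84.2% of the PTKO calls. Slc25a24, Slc25a30 and Slc25a43 rose in both genotypes at each time. In 0 cases were the called directions opposite. The fall of the proximal tubule markers and the rise of the macrophage markers given above moved with every one of these calls, and their part was not tested. A list of 13 mitochondrial content genes, such as citrate synthase and respiratory chain subunits, had a median of -0.38 (7 lower, 0 higher) and -0.56 (10 lower, 0 higher) at AA 2wk in fl/fl and PTKO, and of -0.54 (10 lower, 0 higher) and -0.89 (13 lower, 0 higher) at AA 4wk. The members' medians stand between these and the medians over all genes. For the counts of this list, the shares of all genes that fell or rose are those given with the member counts above.

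**Figure D2:**
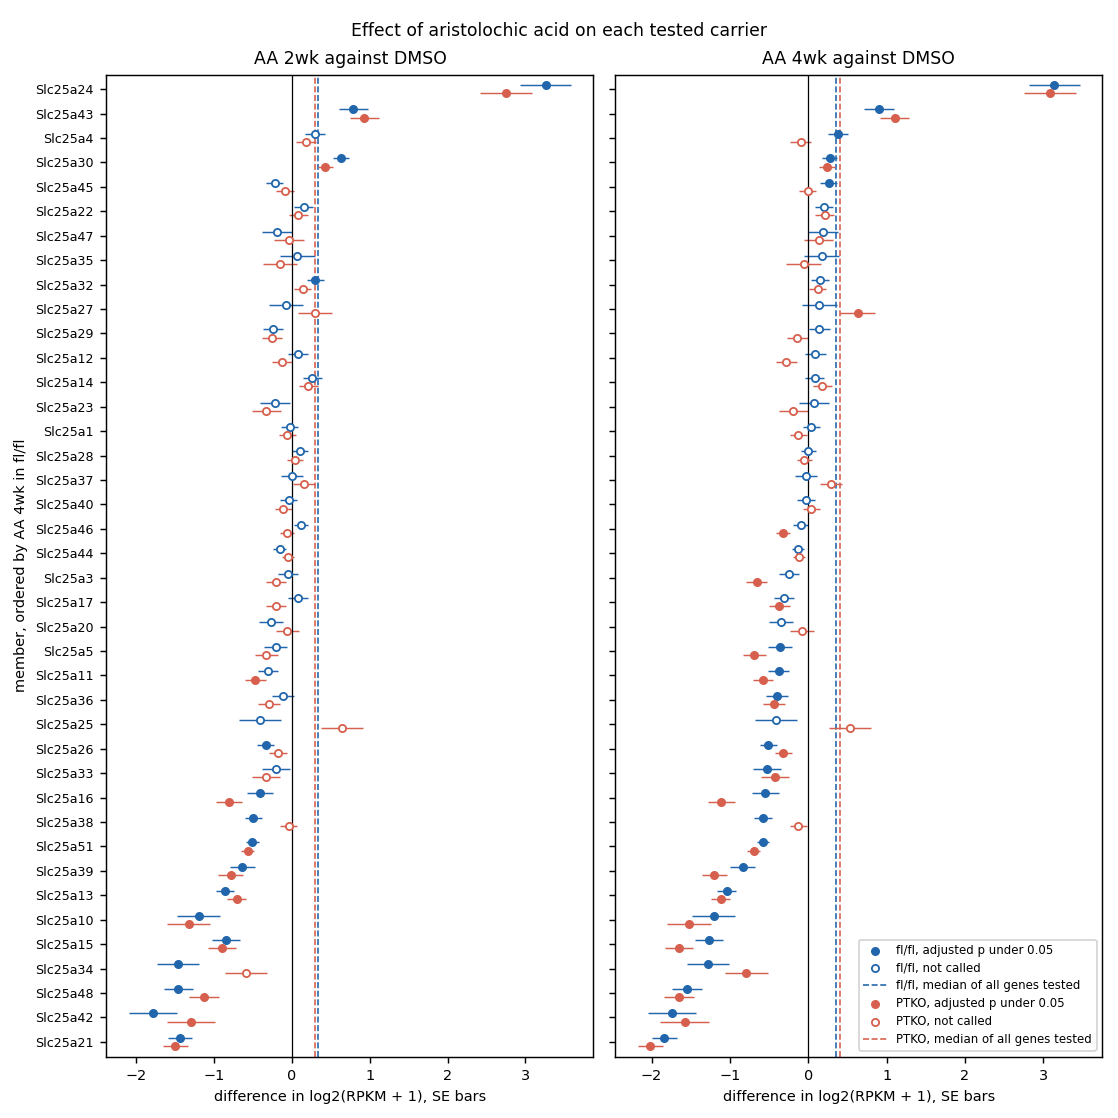
Points are the difference in log2(RPKM + 1) between toxin and DMSO for each tested member (1 is not shown) with its SE from limma, fl/fl in blue and PTKO in red; filled points have an adjusted p under 0.05, and dashed lines are the medians over all 13624 genes. The lower end holds Slc25a21, Slc25a42 and Slc25a48 in all 4 comparisons, and Slc25a24 lies far above the other members.

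Among the carriers of adenine nucleotides and phosphate, 6 members were tested, and Slc25a24 was the member with the largest rise of the family. Slc25a24 is a calcium-regulated exchanger of ATP-Mg for phosphate. It stood at 1.02, 1.78 and 0.933 RPKM in fl/fl DMSO, 21.2, 26.9 and 14.5 after AA 2wk and 20.7, 16.3 and 18.6 after AA 4wk. In PTKO it stood at 1.85, 1.54 and 2.31 RPKM under DMSO, 24.6, 29.6 and 8.29 after AA 2wk and 22.5, 24.8 and 23.1 after AA 4wk. Every toxin library was above every DMSO library, and the lowest 2 toxin values are the AA 2wk libraries numbered 3. Here and below, of 2 differences given for a genotype the first is AA 2wk and the second AA 4wk, each against DMSO and with its SE and limma's adjusted p. The log2 differences of Slc25a24 were 3.26 ± 0.33 (adjusted p = 3.5e-06) and 3.14 ± 0.33 (adjusted p = 2.8e-06) in fl/fl, and 2.75 ± 0.33 (adjusted p = 1.44e-05) and 3.08 ± 0.33 (adjusted p = 2.31e-06) in PTKO. These are on the log2(RPKM + 1) scale, which shrinks changes of low genes; with a pseudocount of 0.1 they were 3.97, 3.84, 3.21 and 3.58. Its 2 close relatives were called in none of the 4 comparisons. The log2 differences of Slc25a25, described with the genotypes below, were -0.41 at both times in fl/fl. In PTKO they were above 0, at 0.64 ± 0.27 and 0.53 ± 0.27. Those of Slc25a23 ran from -0.33 to 0.07. Thus Slc25a24 stood at 0.0186 ± 0.005 (SD, n = 3) of the RPKM of Slc25a23 in fl/fl DMSO, at 0.398 ± 0.204 after AA 2wk and at 0.272 ± 0.0459 after AA 4wk. In PTKO the ratio was 0.0303 ± 0.00662, 0.466 ± 0.303 and 0.432 ± 0.0688.

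The 2 abundant adenine nucleotide carriers, which exchange ADP for ATP, separated after the toxin. Slc25a4 stood at 296, 250.5 and 261 RPKM in fl/fl DMSO, 305, 304 and 391 after AA 2wk and 320.4, 358 and 373 after AA 4wk, and Slc25a5 at 285, 247 and 283 under DMSO, 214, 201 and 302 after AA 2wk and 198, 212 and 224 after AA 4wk. In PTKO, Slc25a4 stood at 306, 305 and 288 under DMSO, 311, 304 and 418 after AA 2wk and 288, 254.5 and 299 after AA 4wk, and Slc25a5 at 268, 284 and 270.1 under DMSO, 193, 203 and 264 after AA 2wk and 158, 155 and 196 after AA 4wk RPKM. Slc25a4 exceeded its DMSO range in fl/fl and overlapped it in PTKO, whereas Slc25a5 lay below its DMSO range in 3 of the 4 comparisons. Slc25a4 rose at AA 4wk in fl/fl (0.38 ± 0.13, adjusted p = 0.0211), a call that median-of-ratios scaling turned to -0.05 and that was lost without fl/fl DMSO library 2 or 3 or fl/fl AA 4wk library 2 or 3. Slc25a5 fell at AA 4wk in PTKO (-0.69 ± 0.15, adjusted p = 0.000798) and in fl/fl (-0.36 ± 0.15, adjusted p = 0.0471), the latter call being lost in 14 of 27 alternatives, among them leaving out any fl/fl AA 4wk library. The ratio of the 2 within a library, which 1 scaling factor per library cannot move, unlike quantile normalization, was 1.04, 1.01 and 0.922 in fl/fl DMSO, 1.42, 1.51 and 1.3 after AA 2wk and 1.62, 1.69 and 1.67 at AA 4wk. In PTKO it was 1.14, 1.08 and 1.07 under DMSO, 1.61, 1.49 and 1.59 after AA 2wk and 1.82, 1.64 and 1.52 after AA 4wk. All 12 toxin libraries had a higher ratio than all 6 DMSO libraries, with an exact two-sided permutation p of 0.1 in each of the 4 comparisons (adjusted 0.175 over 56 ratio tests), the smallest p that 3 libraries against 3 allow. The phosphate carrier Slc25a3 fell at AA 4wk in PTKO, from 478, 512 and 479 to 311, 282 and 341 RPKM (-0.66 ± 0.13, adjusted p = 0.000328), without overlap of the groups. In fl/fl it went from 462, 403 and 470.3 to 350.2, 383 and 386 RPKM and was not called (-0.25 ± 0.13, adjusted p = 0.0932), although these groups did not overlap either, and the PTKO call was lost with quantile normalization (-0.19).

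**Figure D3:**
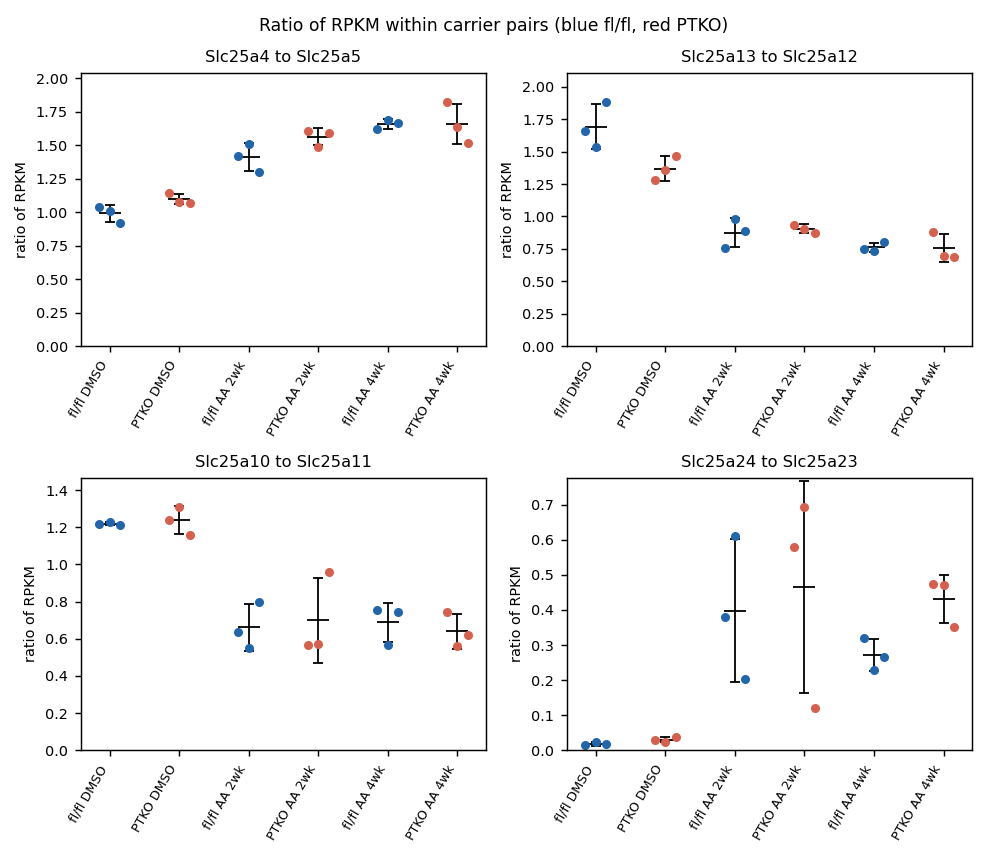
Each point is the ratio of 2 carriers' RPKM within 1 library (fl/fl in blue, PTKO in red), with the mean and SD of 3 libraries in black. The ratio of Slc25a4 to Slc25a5 is at least 1.3 in all toxin libraries and at most 1.14 in all DMSO libraries, and the ratios of Slc25a13 to Slc25a12 and of Slc25a10 to Slc25a11 fall below 1 after the toxin.

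Carriers of the TCA cycle and of the malate-aspartate shuttle were divided between members that fell and members that were not called. Slc25a21 exchanges oxoadipate, an intermediate of lysine and tryptophan breakdown, for oxoglutarate. It stood at 11.9, 8.12 and 13.2 RPKM in fl/fl DMSO, 2.7, 3.24 and 4.35 after AA 2wk and 2.03, 2.49 and 2.41 after AA 4wk, and in PTKO at 10.7, 10.5 and 9.68 under DMSO, 2.87, 2.67 and 3.47 after AA 2wk and 1.83, 1.81 and 1.68 after AA 4wk. No toxin library reached the lowest DMSO library. The differences were -1.44 ± 0.16 (adjusted p = 5.81e-06) and -1.84 ± 0.16 (adjusted p = 4.85e-07) in fl/fl and -1.50 ± 0.16 (adjusted p = 4.2e-06) and -2.02 ± 0.16 (adjusted p = 1.75e-07) in PTKO. The last is the largest fall of any member in any of these comparisons. The dicarboxylate carrier Slc25a10, which exchanges malate or succinate for phosphate, went from 136, 131 and 139 RPKM in fl/fl DMSO to 52.5, 42.1 and 89.4 after AA 2wk and 59.9, 47.4 and 68.2 after AA 4wk. In PTKO it went from 132, 144 and 131 to 40.2, 41.9 and 90.7 after AA 2wk and 52.1, 38.6 and 50.3 after AA 4wk. The AA 2wk libraries numbered 3 (89.4 and 90.7) are the 2 highest of the toxin libraries. The differences were -1.20 ± 0.28 (adjusted p = 0.00205) and -1.21 ± 0.28 (adjusted p = 0.00166) in fl/fl and -1.33 ± 0.28 (adjusted p = 0.00112) and -1.52 ± 0.28 (adjusted p = 0.000226) in PTKO, and at AA 2wk they were -1.50 and -1.70 without those 2 libraries. The oxoglutarate/malate carrier Slc25a11, which works beside it, fell less: -0.38 ± 0.13 (adjusted p = 0.0189) in fl/fl and -0.58 ± 0.13 (adjusted p = 0.0011) in PTKO at AA 4wk, and -0.47 ± 0.13 (adjusted p = 0.00656) in PTKO at AA 2wk, while fl/fl at AA 2wk was not called (-0.31 ± 0.13, adjusted p = 0.0507). The AA 4wk call of Slc25a11 in fl/fl was lost without DMSO library 3 or AA 4wk library 1. The ratio of Slc25a10 to Slc25a11 was 1.22 ± 0.00919 in fl/fl DMSO, 0.662 ± 0.128 after AA 2wk and 0.688 ± 0.106 at AA 4wk, and in PTKO 1.24 ± 0.0795, 0.699 ± 0.226 and 0.641 ± 0.0946.

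The 2 aspartate/glutamate carriers of the malate-aspartate shuttle parted. Slc25a13 (citrin) stood at 64.5, 62.6 and 66 RPKM in fl/fl DMSO, 31.6, 31.6 and 43.2 after AA 2wk and 28.6, 31.5 and 32.7 after AA 4wk, and Slc25a12 (aralar) at 38.8, 40.8 and 35.1 under DMSO, 41.8, 32.4 and 48.6 after AA 2wk and 38, 43.2 and 40.9 after AA 4wk. In PTKO the values were 54, 58.6 and 58.2 under DMSO, 31, 32.8 and 39.6 after AA 2wk and 27.6, 23.4 and 25.9 after AA 4wk RPKM for Slc25a13, and 42.3, 43 and 39.5 under DMSO, 33.1, 36.3 and 45.5 after AA 2wk and 31.3, 33.7 and 37.6 after AA 4wk for Slc25a12. Slc25a13 was higher than Slc25a12 in all 6 DMSO libraries and lower in all 12 toxin libraries. Slc25a13 fell in each comparison, with log2 differences of -0.86 ± 0.12 (adjusted p = 3.1e-05) and -1.04 ± 0.12 (adjusted p = 4.01e-06) in fl/fl and -0.71 ± 0.12 (adjusted p = 0.000141) and -1.12 ± 0.12 (adjusted p = 1.46e-06) in PTKO. Slc25a12 was called in none, with log2 differences of 0.08, 0.09, -0.13 and -0.28, which median-of-ratios and quantile scaling turned below 0 in fl/fl. The ratio of Slc25a13 to Slc25a12 was 1.66, 1.54 and 1.88 in fl/fl DMSO, 0.757, 0.977 and 0.889 after AA 2wk and 0.752, 0.731 and 0.801 at AA 4wk. In PTKO it was 1.28, 1.36 and 1.47 under DMSO, 0.938, 0.905 and 0.87 after AA 2wk and 0.882, 0.694 and 0.69 after AA 4wk, and under DMSO the PTKO libraries lay below the fl/fl libraries. Each of these group contrasts without overlap has the exact permutation p of 0.1 given above. The citrate carrier Slc25a1, which supplies cytosolic acetyl-CoA, and the glutamate carrier Slc25a22 were called in none of the 4 comparisons, with log2 differences from -0.13 to 0.04 and from 0.08 to 0.21. Those of Slc25a22 turned negative with both scalings.

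**Figure D4:**
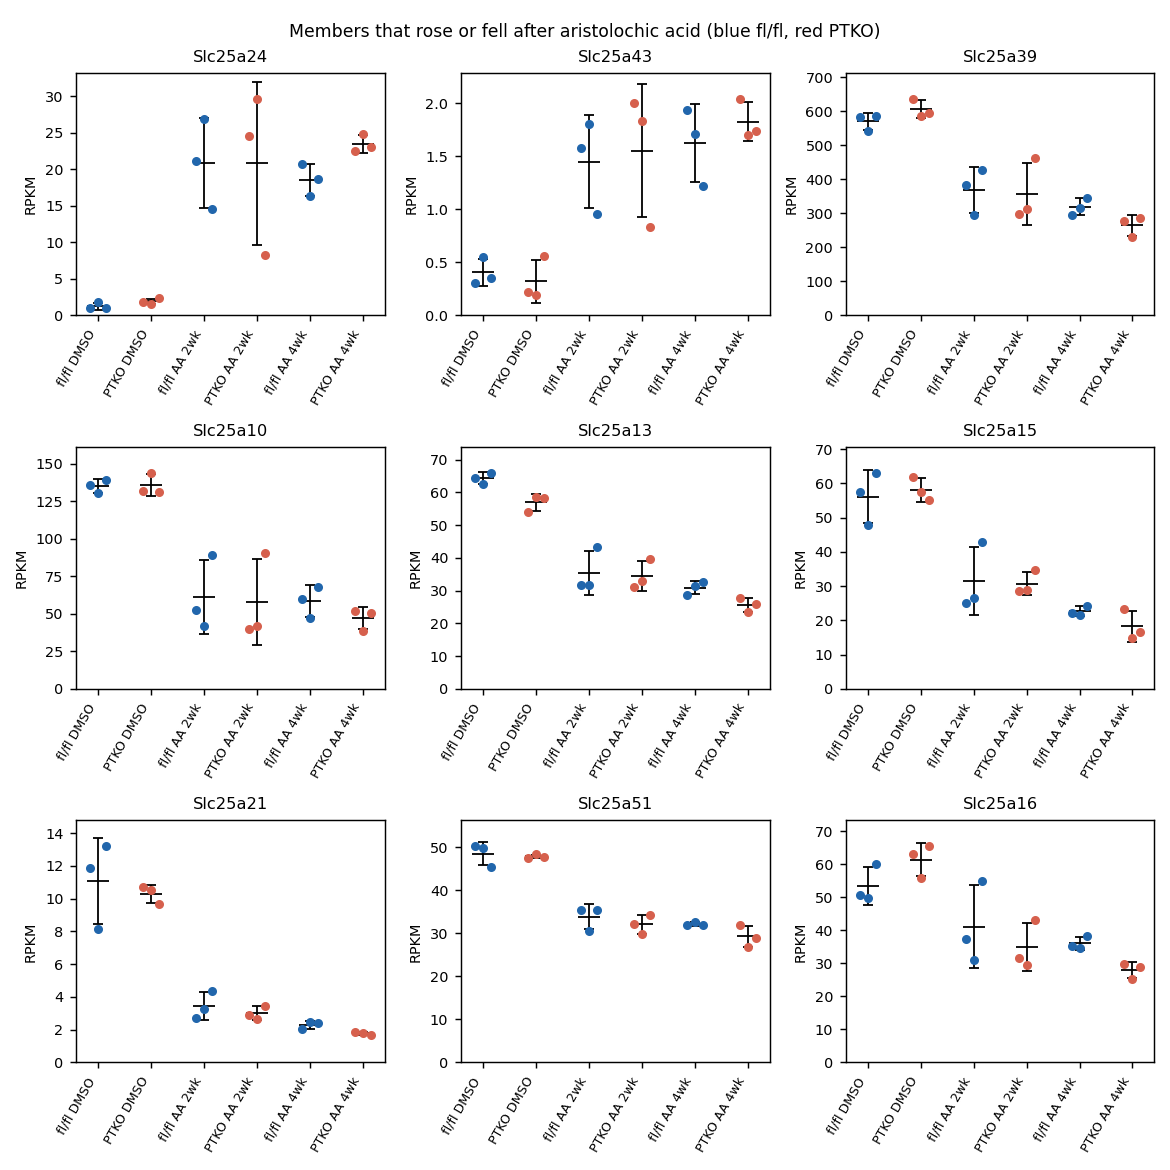
RPKM of 9 members in each library (fl/fl in blue, PTKO in red), with the mean and SD of 3 libraries in black and each axis from 0. Slc25a24 and Slc25a43 are higher in every toxin library than in every DMSO library, and the other members are lower, apart from Slc25a16, whose highest fl/fl AA 2wk library (55.0) is within the fl/fl DMSO range.

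Amino acid carriers were led by Slc25a15, the ornithine/citrulline exchanger. Slc25a15 stood at 57.5, 47.8 and 63.1 RPKM in fl/fl DMSO, 25, 26.4 and 42.8 after AA 2wk and 22.1, 21.5 and 24.3 after AA 4wk. In PTKO the values were 61.9, 57.4 and 55 under DMSO, 28.6, 28.8 and 34.6 after AA 2wk and 23.2, 14.7 and 16.7 after AA 4wk RPKM. Toxin and DMSO libraries did not overlap, and the differences were -0.85 ± 0.18 (adjusted p = 0.00114) and -1.27 ± 0.18 (adjusted p = 3.57e-05) in fl/fl and -0.90 ± 0.18 (adjusted p = 0.000781) and -1.65 ± 0.18 (adjusted p = 2.86e-06) in PTKO. Among 9 tested ornithine and glutamate enzymes the direction was mixed: 5 rose and 2 fell in fl/fl at each time, 5 rose and 0 fell at AA 2wk in PTKO, and 5 rose and 2 fell at AA 4wk in PTKO. Oat, which makes glutamate semialdehyde from ornithine in the matrix, rose by 0.52 and 0.47 (log2) in fl/fl and 0.90 and 0.48 in PTKO, opposite to Slc25a15. Slc25a20, the acylcarnitine carrier that admits long-chain fatty acids to oxidation, was not called in any of the 4 toxin comparisons, with log2 differences from -0.35 to -0.06, although it was called at AA 2wk in fl/fl without both libraries numbered 3. Of 6 tested genes of the carnitine shuttle, 5 acyltransferases and the plasma membrane carnitine transporter Slc22a5, 5 fell and 1 rose in fl/fl and 4 fell and 1 rose in PTKO at each time. The riser was Cpt1c, a brain-type carnitine palmitoyltransferase (3.01 and 3.04 in fl/fl, 2.22 and 3.12 in PTKO). Beside these 2 lists, 12.2% of all tested genes fell and 50.4% rose at AA 2wk in fl/fl, and 14.3% and 45.9% in PTKO. At AA 4wk the shares of all genes were 14.3% and 51.9% in fl/fl, and 17.3% and 55% in PTKO. The branched-chain amino acid carrier Slc25a44 (-0.16 to -0.05) and the basic amino acid carrier Slc25a29 (-0.26 to 0.14) were likewise not called with all libraries in the fit.

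Cofactor carriers, the longest role list with 11 tested members, held the most calls by number, which does not rank the lists by share. At AA 2wk 6 fell and 1 rose in fl/fl, and 5 and 0 in PTKO. At AA 4wk the counts were 8 and 0 in fl/fl, and 9 and 0 in PTKO. Of all tested genes, 12.2% fell and 50.4% rose at AA 2wk in fl/fl, and 14.3% and 45.9% in PTKO. The shares of all genes at AA 4wk were 14.3% and 51.9% in fl/fl, and 17.3% and 55% in PTKO. Slc25a39 stood at 584, 542.5 and 586 RPKM in fl/fl DMSO, 385, 296 and 428 after AA 2wk and 296, 317 and 346 after AA 4wk, and in PTKO at 636, 587 and 596 under DMSO, 297, 312 and 463 after AA 2wk and 277, 231 and 288 after AA 4wk. All toxin libraries lay below all DMSO libraries. The differences were -0.64 ± 0.16 (adjusted p = 0.00327) and -0.84 ± 0.16 (adjusted p = 0.000398) in fl/fl and -0.79 ± 0.16 (adjusted p = 0.000842) and -1.20 ± 0.16 (adjusted p = 1.39e-05) in PTKO. Its paralog Slc25a40, linked to the same glutathione import, was at 3.97 ± 0.663 RPKM in fl/fl DMSO and was called in none of the 4 comparisons (-0.11 to 0.04). Slc25a51, the mitochondrial NAD importer, fell from 50.2, 49.8 and 45.4 RPKM in fl/fl DMSO to 35.5, 30.5 and 35.5 after AA 2wk and 31.9, 32.6 and 31.8 after AA 4wk, and from 47.5, 48.3 and 47.7 in PTKO DMSO to 32.1, 29.8 and 34.3 after AA 2wk and 31.9, 26.9 and 29 after AA 4wk. All toxin libraries were below all DMSO libraries, and the differences of -0.51 ± 0.08 (adjusted p = 0.000103) and -0.58 ± 0.08 (adjusted p = 2.31e-05) in fl/fl and -0.57 ± 0.08 (adjusted p = 4.71e-05) and -0.70 ± 0.08 (adjusted p = 3.6e-06) in PTKO were called in each of the 27 alternatives.

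The 2 carriers linked to coenzyme A in the matrix, Slc25a42 and Slc25a16, both fell. Slc25a42 went from 72.8, 91.1 and 57 RPKM in fl/fl DMSO to 19.9, 14.1 and 29.4 after AA 2wk and 20.8, 20.8 and 21.4 after AA 4wk, and from 36.5, 39.8 and 47.6 in PTKO DMSO to 12.5, 11.4 and 28.6 after AA 2wk and 17.9, 9.27 and 13.5 after AA 4wk. No toxin library reached the DMSO range of its genotype, and the PTKO DMSO libraries lay between. The differences were -1.79 ± 0.31 (adjusted p = 0.000255) and -1.74 ± 0.31 (adjusted p = 0.000236) in fl/fl and -1.30 ± 0.31 (adjusted p = 0.0027) and -1.58 ± 0.31 (adjusted p = 0.000417) in PTKO. Slc25a16 fell in PTKO (-0.81 ± 0.17, adjusted p = 0.00106, and -1.11 ± 0.17, adjusted p = 4.71e-05) and at AA 4wk in fl/fl (-0.55 ± 0.17, adjusted p = 0.0107), whereas its call at AA 2wk in fl/fl (-0.41 ± 0.17, adjusted p = 0.0492) was lost in 18 of 27 alternatives, among them leaving out any DMSO library. Slc25a17, the peroxisomal carrier of coenzyme A and FAD, was called at AA 4wk in PTKO alone (-0.37 ± 0.13, adjusted p = 0.02), beside -0.31 ± 0.13 in fl/fl, adjusted p = 0.0505, and the interaction test did not call a difference between them. Slc25a26, which imports S-adenosylmethionine, fell in 3 of the 4 comparisons, and the pyrimidine nucleotide carriers Slc25a33 and Slc25a36 fell at AA 4wk in both genotypes (-0.53 to -0.40). Some of these calls rest on single libraries at AA 4wk: in fl/fl, Slc25a33 was lost without DMSO library 3 or AA 4wk library 1 or 2, and Slc25a36 without DMSO library 1 or AA 4wk library 3. In PTKO, Slc25a17 was lost without DMSO library 1 or AA 4wk library 1 or 2, Slc25a26 without DMSO library 1 or AA 4wk library 2, Slc25a33 without DMSO library 1 or 3 or AA 4wk library 1 or 2, and Slc25a36 without AA 4wk library 3. The AA 2wk call of Slc25a26 in fl/fl was lost without DMSO library 3 or AA 2wk library 1 or 2. The folate carrier Slc25a32 alone was called higher, at AA 2wk in fl/fl (0.30 ± 0.11, adjusted p = 0.025), both scalings turned it below 0 (-0.03 and -0.25), and it was lost without fl/fl DMSO library 1 or 2 or fl/fl AA 2wk library 3.

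Iron carriers were not called. Slc25a37 (mitoferrin-1), used for heme synthesis in red cell precursors, stood at 11.1, 16.4 and 9.82 RPKM in fl/fl DMSO, and its log2 differences ran from -0.03 to 0.29. Slc25a28 (mitoferrin-2), the form of other tissues, stood at 31.1, 33.1 and 27.5 RPKM and ran from -0.05 to 0.10. Both changed sign with scaling in some comparisons. Red cell markers, 7 genes, summed to between 0.0411 and 4.79 RPKM in a library, and the hemoglobin genes Hba-a1, Hba-a2, Hbb-b1, Hbb-bs and Hbb-bt were listed at 0 in all of them. Slc25a38, which brings glycine to heme synthesis, fell in fl/fl and is described with the genotypes. Of 13 tested heme and iron-sulfur enzymes, 7 fell and 2 rose at AA 2wk in fl/fl, and 8 and 2 in PTKO. At AA 4wk the counts were 9 and 1 in fl/fl, and 8 and 1 in PTKO. Among all tested genes, 12.2% fell and 50.4% rose at AA 2wk in fl/fl, and 14.3% and 45.9% in PTKO. The shares of all genes at AA 4wk were 14.3% and 51.9% in fl/fl, and 17.3% and 55% in PTKO.

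The members resembling uncoupling proteins did not fall. Slc25a30, the kidney mitochondrial carrier protein, stood at 38.6, 37 and 32.5 RPKM in fl/fl DMSO, 54.8, 54.4 and 59.7 after AA 2wk and 47.4, 43 and 40.5 after AA 4wk. In PTKO it stood at 44.7, 35.7 and 40.1 under DMSO, 49.6, 56.3 and 57.7 after AA 2wk and 51, 45 and 46.1 after AA 4wk RPKM. Toxin groups lay above the DMSO group of their genotype in each comparison, by 0.63 ± 0.10 (adjusted p = 8.75e-05) and 0.27 ± 0.10 (adjusted p = 0.0235) in fl/fl and 0.43 ± 0.10 (adjusted p = 0.00166) and 0.24 ± 0.10 (adjusted p = 0.0412) in PTKO. With median-of-ratios scaling the AA 2wk values were 0.24 and 0.09 and no longer called, and the AA 4wk values turned to -0.15 and -0.23. The AA 4wk calls were also lost without fl/fl DMSO library 3 or AA 4wk library 1 in fl/fl, and without PTKO DMSO library 2 or 3, PTKO AA 4wk library 1 or 3 or fl/fl AA 4wk library 2 in PTKO. Slc25a14 was not called, and Slc25a27 went from 0.289, 0.484 and 0.26 to 0.954, 1.22 and 1.08 RPKM in PTKO at AA 4wk and was called higher (0.63 ± 0.22, adjusted p = 0.0181), where quantile normalization turned it to -0.16 and leaving out PTKO DMSO library 3 or PTKO AA 4wk library 2 lost the call. The uncoupling protein Ucp2 belongs to the same family under another symbol. Ucp2 stood at 26.6, 26.4 and 21.6 RPKM in fl/fl DMSO, 100.5, 99.8 and 57 after AA 2wk and 118, 133 and 108 after AA 4wk, and at 25.4, 25 and 30.7 under DMSO, 91.1, 93.1 and 106 after AA 2wk and 155, 164 and 149.8 after AA 4wk in PTKO. It rose by 1.71 and 2.22 in fl/fl and 1.80 and 2.49 in PTKO on the log2 scale. Ucp2 is also abundant in macrophages, whose 7 markers summed to 58.3 to 93 RPKM in fl/fl DMSO and to 1810 to 2780 in fl/fl AA 4wk, and their part in its rise was not tested.

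Among members without an agreed substrate, Slc25a43 rose and Slc25a48 and Slc25a34 fell. Slc25a43 was scarce, at 0.309, 0.55 and 0.353 RPKM in fl/fl DMSO, 1.58, 1.81 and 0.96 after AA 2wk and 1.94, 1.71 and 1.22 after AA 4wk, and at 0.218, 0.195 and 0.557 under DMSO, 2, 1.83 and 0.835 after AA 2wk and 2.04, 1.7 and 1.74 after AA 4wk in PTKO. Groups did not overlap. The log2 differences were 0.79 ± 0.19 (adjusted p = 0.00245) and 0.90 ± 0.19 (adjusted p = 0.000842) in fl/fl and 0.93 ± 0.19 (adjusted p = 0.000874) and 1.10 ± 0.19 (adjusted p = 0.000121) in PTKO, and 1.61, 1.78, 1.98 and 2.28 with a pseudocount of 0.1. The fl/fl calls were lost with quantile normalization. Slc25a43 lies 18449 bases before Slc25a5 on chromosome X, and these neighbours had log2 differences of opposite sign in all 4 comparisons, except that quantile normalization gave 0.03 for Slc25a5 at AA 2wk in fl/fl. Slc25a48, recently linked to choline, stood at 15.4, 11.4 and 15.7 RPKM in fl/fl DMSO, 3.93, 3.65 and 6.06 after AA 2wk and 3.48, 3.96 and 5.03 after AA 4wk. In PTKO it stood at 8.59, 8.69 and 11.1 under DMSO, 3.12, 4.18 and 4.03 after AA 2wk and 2.85, 1.62 and 2.61 after AA 4wk RPKM. It was lower in each toxin library than in each DMSO library, with differences of -1.46 ± 0.19 (adjusted p = 2.48e-05) and -1.55 ± 0.19 (adjusted p = 9.49e-06) in fl/fl and -1.13 ± 0.19 (adjusted p = 0.000207) and -1.65 ± 0.19 (adjusted p = 4.07e-06) in PTKO. Slc25a45 was called higher at AA 4wk in fl/fl (0.26 ± 0.11, adjusted p = 0.0425), a call lost in 12 of 27 alternatives, among them leaving out any AA 4wk library, and turned to -0.16 by median-of-ratios scaling. Slc25a46, an outer membrane protein of mitochondrial dynamics, fell at AA 4wk in PTKO (-0.32 ± 0.09, adjusted p = 0.00623), and Slc25a35 and Slc25a47 were not called.

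Few members were called over the remodeling period. Of the 41, 0 were called between AA 4wk and AA 2wk in fl/fl by limma (7 at an unadjusted p under 0.05, and 0 by voom on recovered reads), where 0.125% of all genes were called, 0.0661% higher and 0.0587% lower. In PTKO 1 member was called, with 4.16% of all genes, 2.6% higher and 1.56% lower. It was Slc25a15, which went from 28.6, 28.8 and 34.6 RPKM at AA 2wk to 23.2, 14.7 and 16.7 at AA 4wk (-0.74 ± 0.18, adjusted p = 0.0386). The call was lost in 14 of 27 alternatives, with adjusted p up to 0.194, among them leaving out any PTKO DMSO library, PTKO AA 2wk library 2 or 3, or PTKO AA 4wk library 2 or 3, and in fl/fl the difference was -0.42 ± 0.18 (adjusted p = 0.377). Other alternatives called more members in PTKO, all lower at AA 4wk: 5 with sample quality weights (Slc25a3, Slc25a13, Slc25a15, Slc25a21 and Slc25a46), 5 with the replicate block (Slc25a48 in place of Slc25a46), 4 without fl/fl AA 2wk library 3 and 3 without both libraries numbered 3. In fl/fl, sample quality weights called Slc25a17 lower and Slc25a45 higher at AA 4wk. Slc25a17 was also called there without fl/fl AA 2wk library 2. The difference of Slc25a45 in the main fit was 0.48 ± 0.11 (adjusted p = 0.11 by limma), without overlap of the groups. In the main fit, none of the carriers lowered at AA 2wk was called higher at AA 4wk than at AA 2wk. The difference between genotypes in this change was called for 0 members (2 at an unadjusted p under 0.05, 0 by voom), beside 0% of all genes. Among the smallest p-values there were those of Slc25a45 (-0.40 ± 0.15, adjusted p = 0.93) and Slc25a4 (-0.36 ± 0.19, adjusted p = 0.93). Summed over the 47 members, RPKM was 2821, 2657 and 2773 in fl/fl DMSO, 2232, 1993 and 2724 after AA 2wk and 2052, 2142 and 2252 at AA 4wk. In PTKO the sums were 2807, 2808 and 2745 under DMSO, 1975, 2051 and 2638 after AA 2wk and 1840, 1665 and 1954 after AA 4wk. The PTKO AA 4wk libraries were the 3 lowest of all 18, and the AA 2wk libraries numbered 3 (2724 and 2638) were the 2 highest of the toxin libraries.

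Between genotypes under DMSO, 9 members were lower and 2 higher in every PTKO library than in every fl/fl library, yet none was called. Groups that do not overlap in this contrast make up 13.6% of all tested genes, 5.77% lower and 7.88% higher, and 0.0367% of all genes were called by limma, 0.0147% higher and 0.022% lower. Of the members, 7 had an unadjusted p under 0.05, and voom called 0. The share of all genes at that unadjusted level is not given here for this or any other comparison. Such member counts therefore have no background beside them. The 9 are Slc25a13, Slc25a20, Slc25a25, Slc25a26, Slc25a34, Slc25a38, Slc25a42, Slc25a44 and Slc25a48. The 2 higher are the most abundant members, Slc25a3 (0.14 ± 0.13) and Slc25a39 (0.09 ± 0.16). Slc25a34, an orphan member related to the dicarboxylate carriers, stood at 22.7, 21.5 and 23.1 RPKM in fl/fl DMSO and at 11.3, 10.3 and 11.2 in PTKO DMSO. The spread within each group was small beside the gap, and the log2 difference was -0.97 ± 0.27 (adjusted p = 0.595). It was called with sample quality weights (adjusted p = 0.000722), when the 2 DMSO groups were fitted by themselves and in a fit without both AA 2wk libraries numbered 3, and not in the other 24 alternatives. Its size was -1.03 to -0.87 over the alternatives. Slc25a25, the ATP-Mg/phosphate carrier that is related to Slc25a24, stood at 26.5, 29.3 and 31.9 RPKM in fl/fl DMSO and 8.49, 19.4 and 11.1 in PTKO DMSO. The difference of -1.18 ± 0.27 (adjusted p = 0.364) was not called, and the PTKO libraries varied more among themselves. Slc25a38 stood at 17.1, 19 and 17.4 RPKM in fl/fl DMSO and 11.9, 13.1 and 11.2 in PTKO DMSO (-0.52 ± 0.11, adjusted p = 0.243), which is the smallest adjusted p of the family in this contrast. Slc25a42 (-0.80 ± 0.31, adjusted p = 0.901) and Slc25a48 (-0.53 ± 0.19, adjusted p = 0.861) had the per-library values given above. With sample quality weights, 11 members were called under DMSO, 8 lower and 3 higher. Slc25a25, Slc25a34, Slc25a38, Slc25a42 and Slc25a48 are among the lower. The share of all genes called with these weights is not given here, and the 0.0367% above is not its background. The proximal tubule list mean lay between -0.19 and 0.04 in all 6 DMSO libraries. PTKO DMSO library 3 had a mean over 8 injured tubule markers of 1.29 against fl/fl DMSO, and leaving it out called 0 members.

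**Figure D5:**
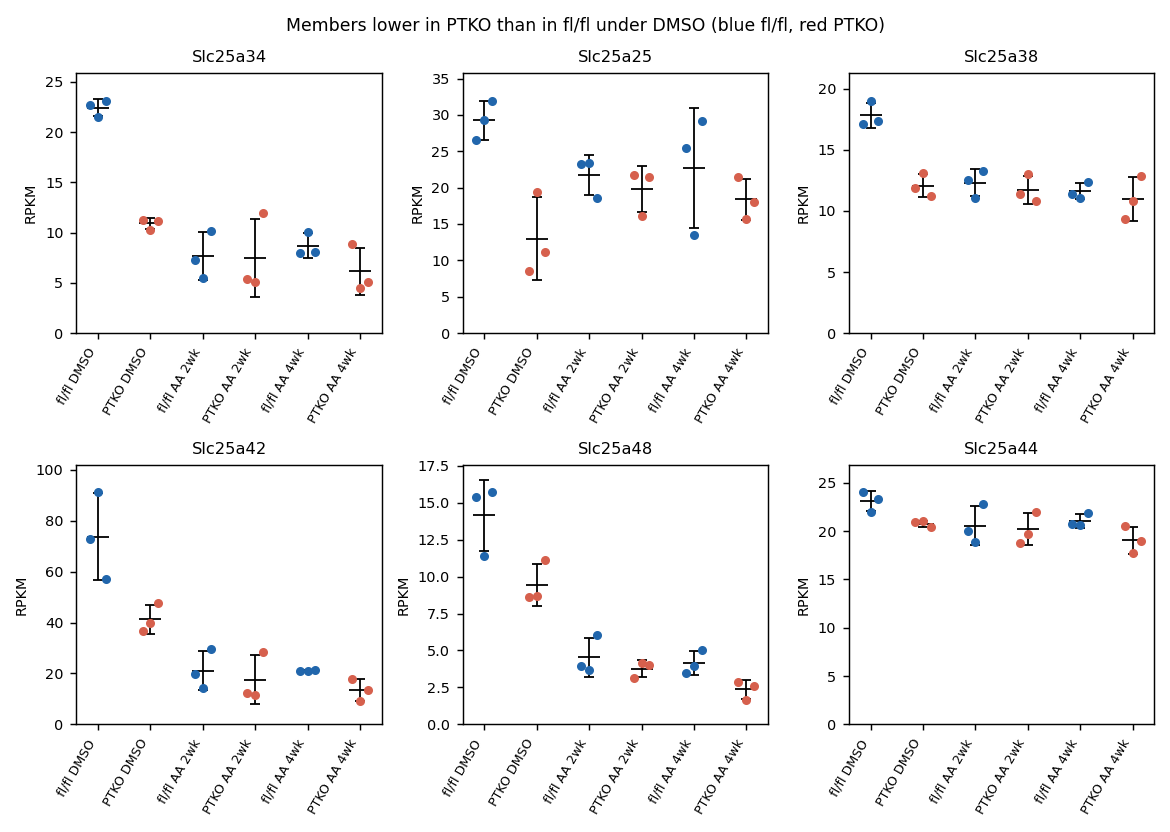
RPKM of 6 of the 9 members that were lower in every PTKO than in every fl/fl DMSO library (fl/fl in blue, PTKO in red), with the mean and SD of 3 libraries in black and each axis from 0. Slc25a34 and Slc25a38 are separate (21.5 against 11.3 RPKM and 17.1 against 13.1 RPKM for the nearest libraries) under DMSO and overlap after the toxin, while Slc25a42 and Slc25a48 fall further in both genotypes.

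After the toxin, Slc25a34, Slc25a38 and Slc25a25 overlapped between genotypes. Slc25a34 stood at 7.28, 5.5 and 10.2 RPKM in fl/fl and 5.34, 5.11 and 12 in PTKO at AA 2wk, and at 7.99, 10.1 and 8.06 RPKM in fl/fl and 8.85, 4.53 and 5.09 in PTKO at AA 4wk. Slc25a38 stood at 12.5, 11.1 and 13.3 RPKM in fl/fl and 11.4, 13 and 10.8 in PTKO at AA 2wk, and at 11.4, 11.1 and 12.4 RPKM in fl/fl and 9.33, 10.8 and 12.9 in PTKO at AA 4wk. Slc25a25 stood at 23.3, 23.4 and 18.6 RPKM in fl/fl and 21.8, 16.1 and 21.4 in PTKO at AA 2wk, and at 25.4, 13.5 and 29.2 RPKM in fl/fl and 21.4, 15.7 and 18 in PTKO at AA 4wk. These groups were no longer separate at either time. Slc25a34 fell in fl/fl, with -1.47 ± 0.27 (adjusted p = 0.000337) after AA 2wk and -1.28 ± 0.27 (adjusted p = 0.000772) at AA 4wk. In PTKO it fell at AA 4wk (-0.79 ± 0.27, adjusted p = 0.016), a call lost without PTKO AA 4wk library 2 or 3, and was not called at AA 2wk (-0.59 ± 0.27, adjusted p = 0.0701). Slc25a38 fell in fl/fl (-0.50 ± 0.11, adjusted p = 0.00111, and -0.58 ± 0.11, adjusted p = 0.000306) and was not called in PTKO (-0.04 ± 0.11, adjusted p = 0.737, and -0.13 ± 0.11, adjusted p = 0.274). Slc25a25 was not called, with -0.41 ± 0.27 at both times in fl/fl and 0.64 ± 0.27 and 0.53 ± 0.27 in PTKO. The test of the difference itself, the interaction of genotype and toxin, called 0 members at AA 2wk (0.0147% of all genes; 3 members at an unadjusted p under 0.05, 0 by voom) and 0 at AA 4wk (0.00734%; 6 members, 0 by voom). The 3 members at an unadjusted p under 0.05 at AA 2wk were Slc25a38 (0.46 ± 0.15, adjusted p = 0.845), Slc25a25 (1.05 ± 0.38, adjusted p = 0.845) and Slc25a34 (0.88 ± 0.38, adjusted p = 0.913). At AA 4wk the smallest p-values were those of Slc25a38 (0.44 ± 0.15, adjusted p = 0.934), Slc25a4 (-0.48 ± 0.19, adjusted p = 0.934) and Slc25a25 (0.95 ± 0.38, adjusted p = 0.934). The interactions of Slc25a25, Slc25a34 and Slc25a38 share the DMSO gap described above, so they are no second sign of it. Slc25a4 had no such gap: its genotypes overlapped under DMSO (0.16 ± 0.13). At AA 4wk it was lower in PTKO without overlap (-0.32 ± 0.13) and was not called.

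Genotype effects within the toxin groups were not called either in the fit over all libraries. At AA 2wk 0 members passed by limma (0.00734% of all genes), 1 had an unadjusted p under 0.05 and voom called 0, and the groups did not overlap for 1 member higher and 2 lower in PTKO (6.69% of all genes, 1.95% higher and 4.74% lower). The smallest p-values were those of Slc25a17 (-0.37 ± 0.13, adjusted p = 0.59), Slc25a45 (0.19 ± 0.11, adjusted p = 0.826) and Slc25a37 (-0.22 ± 0.14, adjusted p = 0.86). Slc25a17 was called (adjusted p = 0.0407) without fl/fl AA 2wk library 2 and in no other alternative. At AA 4wk 0 members passed (0.00734% of all genes), 5 had an unadjusted p under 0.05 and voom called 0. There 14 members were lower and 2 higher in every PTKO library than in every fl/fl library, where 9.73% of all genes were lower and 14.1% higher in that way, 23.8% together. Of the 41 members, 33 had a log2 difference below 0, with a median of -0.21 beside 0.03 over all genes. Slc25a48 (-0.63 ± 0.19, adjusted p = 0.812) and Slc25a29 (-0.33 ± 0.13, adjusted p = 0.812) had some of the smallest p-values, and Slc25a48 was called with sample quality weights (adjusted p = 0.0421) and in no other alternative. Among the most abundant, Slc25a39 stood at 296, 317 and 346 RPKM in fl/fl and 277, 231 and 288 in PTKO. Mitochondrial content genes had a median of -0.33 in this contrast (0 of 13 called), and the proximal tubule list mean was -2.31 to -2.09 in fl/fl AA 4wk and -3.36 to -2.37 in PTKO AA 4wk; their part in the lower carrier levels was not tested.

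Other parts of the carrier system differed among themselves in the balance of falls and rises. Beside the counts that follow, 12.2% of all tested genes fell and 50.4% rose at AA 2wk in fl/fl, and 14.3% and 45.9% in PTKO. At AA 4wk the shares of all genes were 14.3% and 51.9% in fl/fl, and 17.3% and 55% in PTKO. Of 15 tested genes of the TIM22 route, by which carrier proteins enter the inner membrane, 1 fell and 3 rose at AA 2wk in fl/fl, 1 and 2 in PTKO, 3 and 2 at AA 4wk in fl/fl, and 10 and 1 in PTKO. Of 16 tested carriers of other inner membrane families, which include the pyruvate carrier and the sideroflexins, 8 fell and 2 rose in fl/fl at each time, and 9 and 2, then 11 and 2, in PTKO. Among 4 outer membrane channel genes, Vdac1 fell (-0.44 and -0.73 in fl/fl, -0.48 and -0.91 in PTKO) and Tspo rose (0.52 and 0.46, 0.36 and 0.57). Vdac2 rose at AA 2wk in fl/fl (0.20, adjusted p = 0.0366 by limma) and was not called in the other 3 comparisons (0.00 to 0.18), and Vdac3 was called in none (-0.19 to 0.13). The list of 7 shuttle enzymes covers the malate-aspartate and the glycerol phosphate shuttle. Of these, 2 fell and 1 rose at AA 2wk in fl/fl, and 3 and 1 in PTKO. At AA 4wk the counts were 3 and 1 in fl/fl and 5 and 0 in PTKO. Those that fell at AA 2wk in PTKO were Mdh1 and, from the glycerol phosphate shuttle, Gpd1 and Gpd2, while Got1 rose. Of 11 regulators of mitochondrial biogenesis, 3 fell and 1 rose at AA 2wk in fl/fl, 4 and 1 in PTKO, 4 and 1 at AA 4wk in fl/fl, and 6 and 1 in PTKO. In the DMSO contrast between genotypes, none of these lists held a called gene, where 0.0367% of all tested genes were called. So small a share leaves little to read from an absence of calls in short lists.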

How the data were processed

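RNA from perfused mouse kidney cortex was measured as stranded total RNA libraries, 18 in all, 3 in each of 6 groups of genotype and treatment, grouped by the sample titles. The deposited table gives RPKM per gene. Per the submitters' processing notes, the authors used bcl2fastq 2.19, kallisto and mm10, and no version of kallisto is named. RPKM steps gave whole reads for all 17579 genes above 0 in at least 6 libraries (100.0%, within 0.02 of a whole number), and these recovered reads give the depths and entered only the voom alternative. Depth bounds the precision of low genes, and 2 table names are duplicated and 27 read as dates.

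Genes with at least 1 RPKM in 3 or more libraries (13624) were fitted as log2(RPKM + 1) on 6 group means over all 18 libraries with limma 3.58.1 (trend and robust, statmod 1.5.0, R 4.3.3), and p-values were adjusted by Benjamini-Hochberg over all genes. A gene was called at an adjusted p under 0.05. ± is the SE of a log2 difference and the SD of a mean. Ratios between carriers were compared by exact two-sided permutation tests, and the pairs were chosen after their values were seen. The method was tested on simulated data in which as many genes rose as fell. That setting has no shift of the median gene, so it does not test the toxin calls that depend on scaling. The members and all lists were chosen with earlier results of these data known. In each toxin comparison the text names up to 6 risen and 6 fallen called members without overlap and a fixed set of members that anchor the roles. In each remodeling comparison it names up to 4 called members, and in each genotype comparison and interaction the 3 smallest p-values, except 1 member left out of the text. Members named beyond these were chosen after their values were seen. Alternatives were another pseudocount, no filter, 2 scalings, quality weights, voom, separate fits, a replicate block and leaving out libraries. No 2 libraries were identical. The counts include 1 tested member that is not reported here.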

Additional observations from a re-analysis of the deposited data

How the results depend on the processing

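Of 3375 alternative values for 125 member and comparison pairs, 3120 kept direction and side of the threshold, 118 newly passed it, 69 lost it and 68 changed sign, all in toxin comparisons. The genotype and interaction pairs were picked by their small p-values, so their lack of sign changes says nothing of the other members. Slc25a22 changed sign in 9 of 27 alternatives of the AA 4wk interaction, and Slc25a13 in 5 of 27 between genotypes at AA 2wk. Called in each of the 27 alternatives were 12 of 17, 13 of 14, 13 of 22 and 15 of 23 members (AA 2wk fl/fl, AA 2wk PTKO, AA 4wk fl/fl, AA 4wk PTKO). Median-of-ratios scaling called 30 and 30 members at AA 2wk in fl/fl and PTKO and 0 in PTKO remodeling (AA 4wk against AA 2wk). Quantile normalization called 27, 25 and 4. Sample quality weights called 27 and 28 at AA 2wk, 11 between genotypes under DMSO, 1 between genotypes at AA 4wk, 1 in the AA 4wk interaction, and 2 and 5 in fl/fl and PTKO remodeling. In PTKO remodeling voom and the fit of the compared groups alone called 0. The latter called 1 between genotypes under DMSO. Without both AA 2wk libraries numbered 3, 1 was called there and 3 in PTKO remodeling. Leaving out 1 library gave 0 to 4 members in PTKO remodeling, 0 to 1 in fl/fl remodeling, 0 to 1 between genotypes at AA 2wk, 15 to 20 and 14 to 18 at AA 2wk in fl/fl and PTKO, and 16 to 24 and 18 to 24 at AA 4wk. The shares of all genes called under these alternatives are not given here. The causes were not tested.

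Median-of-ratios scaling turned Slc25a32 to -0.03, Slc25a4 to -0.10, Slc25a12 to -0.31, Slc25a22 to -0.22, Slc25a28 to -0.29 and Slc25a37 to -0.37 in fl/fl at AA 2wk. It also turned Slc25a4 to -0.16, Slc25a22 to -0.24, Slc25a28 to -0.30 and Slc25a37 to -0.17 in PTKO at AA 2wk. It also turned Slc25a4 to -0.05, Slc25a30 to -0.15, Slc25a45 to -0.16, Slc25a1 to -0.39, Slc25a12 to -0.34, Slc25a22 to -0.19, Slc25a28 to -0.42 and Slc25a29 to -0.16 in fl/fl at AA 4wk. It also turned Slc25a30 to -0.23, Slc25a22 to -0.22 and Slc25a37 to -0.15 in PTKO at AA 4wk. Quantile normalization turned Slc25a32 to -0.25, Slc25a3 to 0.18, Slc25a5 to 0.03, Slc25a12 to -0.08, Slc25a22 to -0.26, Slc25a28 to -0.10 and Slc25a37 to -0.38 in fl/fl at AA 2wk. It also turned Slc25a3 to 0.09, Slc25a22 to -0.27, Slc25a28 to -0.12 and Slc25a37 to -0.19 in PTKO at AA 2wk. It also turned Slc25a3 to 0.10, Slc25a12 to -0.03, Slc25a22 to -0.24, Slc25a28 to -0.18 and Slc25a29 to -0.57 in fl/fl at AA 4wk. It also turned Slc25a27 to -0.16, Slc25a4 to 0.28, Slc25a22 to -0.29 and Slc25a37 to -0.19 in PTKO at AA 4wk. Quality weights turned Slc25a28 to -0.01 in PTKO at AA 2wk. It also turned Slc25a1 to -0.02 and Slc25a37 to 0.05 in fl/fl at AA 4wk. Leaving out both libraries numbered 3 turned Slc25a12 to -0.05 in fl/fl at AA 2wk. It also turned Slc25a28 to -0.02 and Slc25a38 to 0.01 in PTKO at AA 2wk. Over the single libraries left out, the ranges that crossed 0 were those of Slc25a1 (-0.10 to 0.01), Slc25a37 (-0.14 to 0.21), Slc25a3 (-0.16 to 0.04) and Slc25a12 (-0.05 to 0.23) in fl/fl at AA 2wk. The same held for Slc25a1 (-0.03 to 0.08), Slc25a37 (-0.17 to 0.17) and Slc25a28 (-0.07 to 0.06) in fl/fl at AA 4wk. The same held for Slc25a38 (-0.12 to 0.01), Slc25a22 (-0.01 to 0.18), Slc25a1 (-0.20 to 0.04), Slc25a20 (-0.23 to 0.04) and Slc25a28 (-0.02 to 0.07) in PTKO at AA 2wk. The same held for Slc25a28 (-0.12 to 0.01) in PTKO at AA 4wk.

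No label ties same-numbered libraries, and they were not treated as pairs because not every pair had r over 0.1: 23 of 45 did (-0.16 to 0.66, median 0.10, against -0.02 for different numbers). With the replicate block 19, 16, 24 and 23 members were called in the 4 toxin comparisons, 5 in PTKO remodeling and 0 in the others. Levels near or below 1 RPKM limit Slc25a43 and Slc25a27.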
